A study of Mus musculus with 16 samples.

Results

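The ABC transporters of the mouse colon mucosa were examined: every gene on the arrays whose single symbol begins with Abca to Abcg and a number. This rule gave 48 genes of 30705 with a single symbol, 16 of subfamily ABCA, 9 of ABCB, 10 of ABCC, 3 of ABCD, 1 of ABCE, 3 of ABCF and 6 of ABCG. Each was measured by 1 row of the arrays. Expression was measured in 16 samples of the mucosal layer of the proximal colon, 1 array each, from male C57BL/6J mice. Feeding began at 6 weeks of age and lasted 10 weeks, on control chow or on chow holding 320 ppm of sulindac. Sulindac is a non-steroidal anti-inflammatory drug that blocks cyclooxygenases. Only inflamed areas were taken from sulindac-fed mice, called lesions below, and the matching normal tissue was taken from control-fed mice.

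Mice of all 4 groups carried the loxP-flanked Mcc allele on both chromosomes (Mccf/f). Knockout (KO) mice, VILcreMccf/f, also carried a Villin-cre transgene, which removes Mcc in intestinal epithelium and leaves it in other cells. Their siblings Mccf/f without Cre are called wild type (WT) here and are not mice with an unmodified Mcc gene. The WT arrays comprised 6 from control-fed and 3 from sulindac-fed mice, and the KO arrays 3 and 4. Uninflamed tissue of sulindac-fed mice was not analysed here, so the drug and the choice of inflamed tissue cannot be told apart. No label says that the samples are from separate animals, so p-values measure the spread between these samples.

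ABC proteins bind and split ATP. Most are membrane pumps that move lipids, bile salts, drugs, conjugates or peptides across a membrane, while the ABCE and ABCF proteins have no membrane part and work in translation. In the gut, P-glycoprotein and Abcg2 sit in the luminal membrane of absorptive cells and return foreign compounds to the lumen, and Abca1 and Abcg1 release cholesterol from macrophages and other cells.

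Levels are log2 values, on which a step of 1 is a doubling, and were compared only within a gene. Array medians lay between 4.90 and 5.05, and a gene with a group mean under 4.964, the median of all values, is called dim. Differences of genes dim in both groups are given as differences between the measured log2 values, which may understate the change in RNA, and are not turned into folds. A fold against a dim group is given as a lower bound. Of the 48 genes, 15 were dim in every group, Abca4 and Abcd2 in some groups, and 31 in none. Mcc itself was lower in every KO array (6.39 to 6.71) than in every WT array (7.06 to 7.40). The difference was -0.60 ± 0.08 (SE; adjusted p = 0.083) on control feed and -0.79 ± 0.09 (adjusted p = 0.0032) in lesions. Markers of macrophages (9 of 10 in WT and 10 of 10 in KO lesions), neutrophils (6 and 7 of 8) and fibroblasts (6 of 7 in each) rose. Goblet cell markers (4 and 7 of 8) and enteroendocrine markers (5 of 6 in each) fell, and 0 of 6 B and plasma cell markers passed. The mean over 10 macrophage markers was 5.86 to 6.18 in WT controls, 5.95 to 6.04 in KO controls, 7.23 to 7.45 in WT lesions and 7.40 to 7.79 in KO lesions. The mean over 8 neutrophil markers was 4.36 to 4.55 in WT and 4.38 to 4.41 in KO controls, 6.37 to 7.01 in WT lesions and 7.21 to 8.77 in KO lesions. The mean over 8 absorptive colonocyte markers was 11.29 to 11.57 in WT and 11.41 to 11.62 in KO controls. It was 10.23 to 11.03 in WT lesions and 10.11 to 11.27 in KO lesions. Of these 8 markers, 1 rose and 4 fell in WT lesions, and 1 rose and 3 fell in KO lesions. The mean over 8 pan-epithelial markers was 11.14 to 11.30 in WT and 11.13 to 11.25 in KO controls. It was 11.29 to 11.37 in WT lesions and 11.28 to 11.49 in KO lesions. Among them 0 rose and 1 fell in WT lesions, and 4 rose and 1 fell in KO lesions. In such tissue, fewer cells of a type and less RNA per cell cannot be told apart, and the part of cell make-up in the results below was not tested.

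Lesions were compared with control tissue within each genotype. In WT mice 5 ABC genes rose (Abca1, Abca13, Abcc4, Abcg1 and Abcg3) and 7 fell (Abcb1a, Abcb1b, Abcb6, Abcb9, Abcc10, Abcd3 and Abcg2), at a Benjamini-Hochberg adjusted p under 0.05 in limma over all 30705 genes. That was 25.0% of the 48, beside 15.3% of all genes, with 6.98% of all genes higher and 8.37% lower. In KO mice 8 rose (Abca1, Abca5, Abcb11, Abcc1, Abcc4, Abcd2, Abcg1 and Abcg3) and 6 fell (Abcb1a, Abcb6, Abcb8, Abcc3, Abcc10 and Abcf3), 29.2% of the 48 beside 21.1% of all genes. Among all genes 8.98% were higher and 12.1% lower in KO mice, so the share of ABC genes that fell, 12.5%, was close to the background. Of the 48, 18 in WT (37.5%) and 19 in KO mice (39.6%) had an unadjusted p under 0.05, beside 27.9% and 31.0% of all genes. Lesions lay wholly above the controls for 5 genes and wholly below for 8 in WT mice, beside 8.15% and 11.6% of all genes, and for 9 and 5 in KO mice, beside 12.7% and 14.5%. With each array centred on its median, the KO calls were 6 higher and 8 lower. In WT mice 4 fell without lesion 2 and 2 without lesion 3. In KO mice 5 rose without control 3, 3 fell without control 1 or control 2, and 8 rose and 5 fell without lesion 3. With the number series as a covariate 4 rose and 3 fell in KO mice, and with only the groups compared 4 rose and 4 fell. The median difference over the 48 genes was -0.07 in WT and 0.01 in KO mice, beside -0.06 and 0.0057 over all genes.

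Both responses shared 7 calls, which are 58.3% of the WT calls and 50.0% of the KO calls. Abca1, Abcc4, Abcg1 and Abcg3 rose in both, Abcb1a, Abcb6 and Abcc10 fell in both, and 0 genes were called in opposite directions. The remaining 29 genes passed in neither response, with log2 differences from -0.34 to 0.41 in WT and from -0.27 to 0.62 in KO mice. By subfamily, 4 of the 9 ABCB genes fell and 0 rose in WT mice, and 3 fell and 1 rose in KO mice. Over all genes 8.37% fell and 6.98% rose in WT mice, and 12.1% and 8.98% in KO mice. In ABCA 2 of 16 genes rose in each genotype (12.5%) and 0 fell, which in so few genes was close to these shares. For no ABC gene did the responses of WT and KO mice differ past the threshold, with a lowest adjusted p for the interaction of 0.397 (Abcd2), although Abcd2 passed without KO lesion 3 (adjusted p = 0.0174). A gene called in a single genotype was therefore not shown to respond differently in the other.

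**Figure D1:**
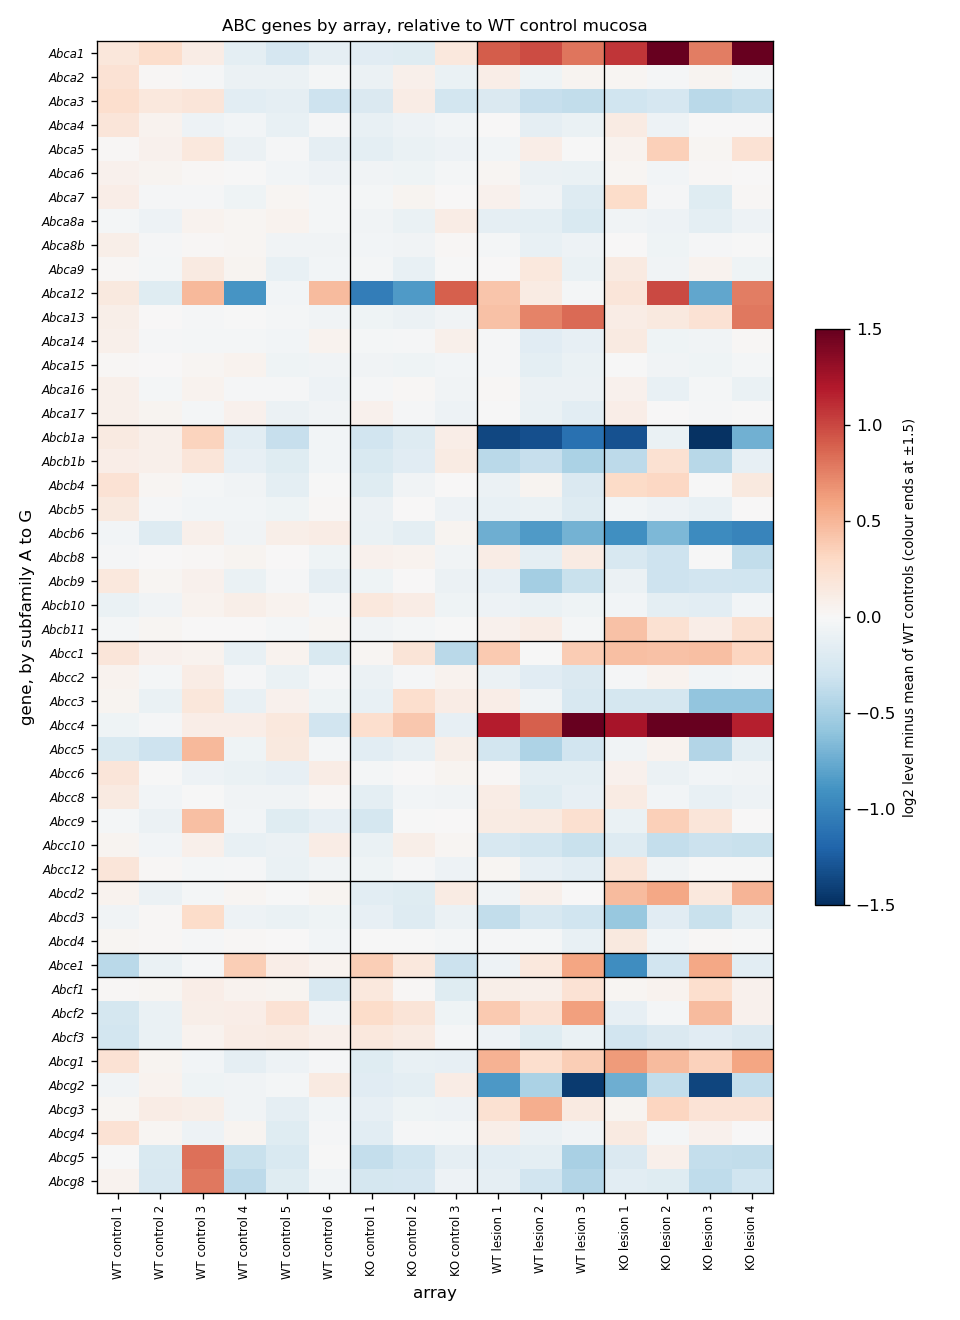
Heat map of the 48 ABC genes (lines, by subfamily) in the 16 arrays (columns, by group), coloured by log2 level minus the mean of the 6 WT controls, with colour ends at -1.5 and 1.5. Abca1 and Abcc4 are red and Abcb1a, Abcb6 and Abcg2 blue in most lesion columns, while most other lines are pale.

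**Figure D2:**
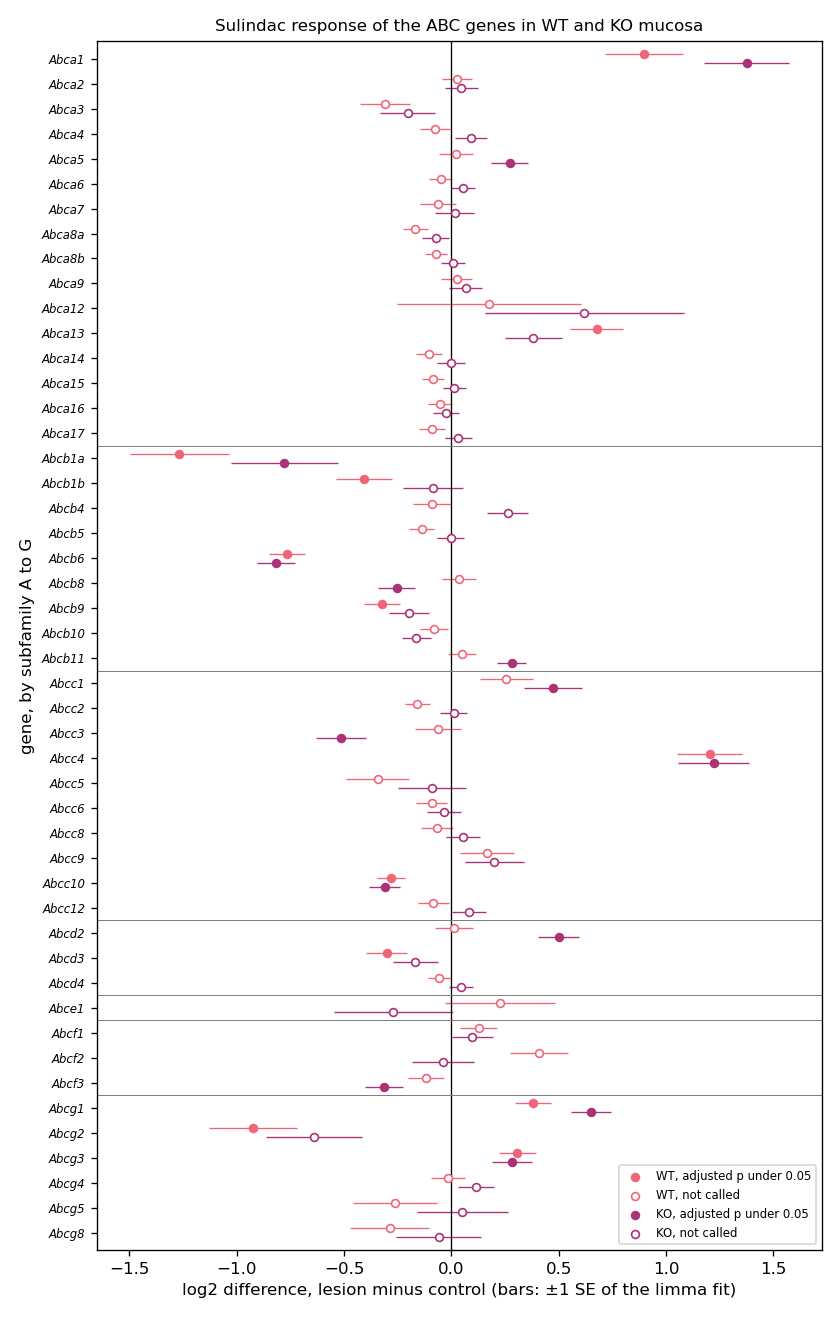
Log2 difference of lesion minus control for each ABC gene, with bars of 1 SE, in WT (6 controls, 3 lesions) and KO mice (3 controls, 4 lesions); filled points passed adjusted p under 0.05. Points far from 0 on the same side in both genotypes are Abcc4 and Abca1 to the right and Abcb6 and Abcb1a to the left.

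Among the sterol exporters Abca1 and Abcg1 rose. Abca1 passes cholesterol and phospholipid to apolipoprotein A-I, the step that starts high-density lipoprotein. The promoter of Abca1 is shown because the gene is a textbook target of the liver X receptors. It covers the 250 bases before the RefSeq start in build GRCm38.p6 on the minus strand, chr4:53159896-53160145. Capitals mark an E-box (CACGTG), a receptor element (TGACCNNNNNTAACC, where N is any base) and a TATA box (TATAAA):
Abca1: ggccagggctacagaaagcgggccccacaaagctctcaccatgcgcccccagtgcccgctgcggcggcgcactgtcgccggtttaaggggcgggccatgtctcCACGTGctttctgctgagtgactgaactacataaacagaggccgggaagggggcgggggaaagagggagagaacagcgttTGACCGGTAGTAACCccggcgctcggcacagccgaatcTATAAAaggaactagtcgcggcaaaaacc
The letters of the receptor element lay at -67 to -53 relative to the start and were chosen after this sequence was read. Searched on both strands, they occurred in 1 of the 38 ABC promoters with an entry and in 9 of 27025 promoters of all genes (0.0333%). An E-box occurred in 5 of the 38 (13.2%) and in 6.04% of all promoters, and a TATA box in 4 (10.5%) and in 13.0%.

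Abca1 lay between 5.63 and 6.14 in the 6 WT controls, with a median of 5.87, and at 6.79, 6.87 and 6.69 in the WT lesions. The KO controls were at 5.71, 5.70 and 6.04 and the KO lesions at 6.96, 7.55, 6.65 and 7.62. Lesions and controls did not overlap in either genotype, and KO lesions 2 and 4 were the highest of all arrays. The log2 difference was 0.90 ± 0.18 in WT mice (SE; 1.86-fold, adjusted p = 0.00294) and 1.38 ± 0.20 in KO mice (2.60-fold, adjusted p = 0.00012). KO lesions 2 and 4 were also the highest in the neutrophil mean, at 8.77 and 8.75, and in the macrophage mean, at 7.79 and 7.64, beside 7.21 and 7.40 in KO lesion 3, where Abca1 was lowest of the KO lesions. In WT lesions 1, 2 and 3 the neutrophil mean was 7.01, 6.87 and 6.37 and the macrophage mean 7.23, 7.45 and 7.27. Abca1 was highest there in lesion 2 and lowest in lesion 3. Whether Abca1 followed these means was not tested.

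Abcg1, which moves cholesterol onto formed lipoprotein particles, lay between 6.36 and 6.72 in WT controls, with a median of 6.47. It stood at 7.02, 6.75 and 6.87 in WT lesions, with KO controls at 6.31, 6.39 and 6.38 and KO lesions at 7.14, 6.98, 6.84 and 7.09. Again no lesion overlapped its controls. The difference was 0.38 ± 0.09 in WT mice (1.30-fold, adjusted p = 0.00598) and 0.65 ± 0.09 in KO mice (1.57-fold, adjusted p = 1.08e-04). Against the 3 WT controls of the same number series (explained with the processing), the WT difference was 0.72 for Abca1 (adjusted p = 0.0661) and 0.30 for Abcg1 (adjusted p = 0.110), and neither passed.

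Abcg5 and Abcg8 form the pair that excretes sterols into the gut lumen, and their genes lie next to each other on chromosome 17. Abcg5 lay between 5.55 and 6.71 in WT controls (median 5.76), at 5.73, 5.73 and 5.40 in WT lesions, with KO controls at 5.52, 5.58 and 5.75 and KO lesions at 5.67, 5.96, 5.53 and 5.52. Abcg8 lay between 5.45 and 6.63 (median 5.72), at 5.71, 5.55 and 5.40, at 5.58, 5.59 and 5.77, and at 5.68, 5.66, 5.46 and 5.54 in the same order. Both genes had their highest value of all arrays in WT control 3, and the groups overlapped otherwise. Neither passed in any comparison, with lesion differences of -0.26 (95% interval -0.68 to 0.16) and -0.29 (-0.68 to 0.10) in WT mice and of 0.05 (-0.40 to 0.50) and -0.06 (-0.48 to 0.36) in KO mice.

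Of 23 other sterol and lipoprotein genes measured from a list of 29, 1 rose and 2 fell in WT lesions and 3 rose and 2 fell in KO lesions, with medians of -0.08 and 0.08. Beside 6.98% of all genes higher and 8.37% lower in WT lesions, and 8.98% and 12.1% in KO lesions, these counts were near the background. Among the genes called, Apoe, the lipoprotein made by macrophages and other cells, rose by 0.58 and 0.38, and Npc1, which lets cholesterol out of lysosomes, rose in KO lesions by 0.67. Nr1h3, which encodes liver X receptor alpha, fell (-0.27 in WT and -0.24 in KO lesions). Mylip, a target of that receptor that degrades the LDL receptor, fell as well (-0.52 and -0.43). Pltp, which transfers phospholipids between lipoproteins, rose in KO lesions by 0.24 (adjusted p = 0.0341).

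The drug efflux pumps Abcb1a, Abcb1b and Abcg2 fell in WT lesions. Abcb1a and Abcb1b encode the mouse P-glycoproteins, which lie side by side with Abcb4 on chromosome 5. Both promoters (250 bases, plus strand, GRCm38.p6, chr5:8566841-8567090 and chr5:8797897-8798146) are shown to compare the pair, with CCAAT boxes (CCAAT) in capitals:
Abcb1a: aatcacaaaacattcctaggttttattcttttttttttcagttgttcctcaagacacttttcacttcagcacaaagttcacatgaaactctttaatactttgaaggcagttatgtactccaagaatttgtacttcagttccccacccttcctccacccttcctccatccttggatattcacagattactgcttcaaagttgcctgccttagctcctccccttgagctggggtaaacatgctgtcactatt
Abcb1b: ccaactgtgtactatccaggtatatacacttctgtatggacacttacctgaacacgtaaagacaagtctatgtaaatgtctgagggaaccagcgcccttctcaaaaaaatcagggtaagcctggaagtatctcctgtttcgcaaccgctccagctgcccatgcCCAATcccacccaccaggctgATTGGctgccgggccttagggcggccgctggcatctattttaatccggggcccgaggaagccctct
The window of Abcb1a held none of the motifs searched, and that of Abcb1b held a CCAAT box on each strand and a GC box (GGGCGG). The CCAAT box occurred in 11 of the 38 ABC promoters (28.9%) and in 34.5% of all promoters, and GC boxes in 16 (42.1%) and in 33.0%. An AP-1 site (TGACTCA) occurred in 0 of 38 and in 4.43% of all promoters, and the receptor half-site AGGTCA in 5 (13.2%) and in 13.8%.

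Abcb1a lay between 11.06 and 11.75 in WT controls, with a median of 11.43, and at 10.04, 10.10 and 10.29 in WT lesions. KO controls stood at 11.12, 11.22 and 11.51 and KO lesions at 10.10, 11.30, 9.93 and 10.69. All WT lesions were below all WT controls, whereas KO lesion 2 lay among the KO controls. The log2 difference was -1.27 ± 0.23 in WT mice (2.41-fold, adjusted p = 0.00129) and -0.78 ± 0.25 in KO mice (1.71-fold, adjusted p = 0.0361). The WT call held in all 27 alternatives. The KO call was lost in 9 of 26, among them without KO lesion 1 or 3 or any KO control (-0.86 to -0.59, adjusted p = 0.0631 to 0.121) and with the replicate number as a block (-0.77, adjusted p = 0.0912).

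Abcb1b lay between 5.91 and 6.28 in WT controls, with a median of 6.12, at 5.70, 5.75 and 5.63 in WT lesions, with KO controls at 5.87, 5.93 and 6.23 and KO lesions at 5.71, 6.33, 5.68 and 5.98. WT lesions did not overlap WT controls, and KO lesion 2 was the highest KO array. The WT difference was -0.41 ± 0.13 (1.33-fold, adjusted p = 0.0449) and the KO difference -0.08 (adjusted p = 0.755). The WT call was lost in 14 of 27 alternatives. Whether the probes tell these similar copies apart was not tested.

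Abcg2, the breast cancer resistance protein, exports drugs and urate. Its row carries more than 1 gene identifier under the same symbol. It lay between 8.87 and 9.05 in WT controls, with a median of 8.89, and at 8.07, 8.45 and 7.49 in WT lesions. KO controls stood at 8.75, 8.78 and 9.04 and KO lesions at 8.20, 8.56, 7.54 and 8.57. Lesions lay below all controls in both genotypes, and lesion 3 was lowest in each. The difference was -0.92 ± 0.21 in WT mice (1.90-fold, adjusted p = 0.0057) and -0.64 ± 0.22 in KO mice (adjusted p = 0.0535), which did not pass. Without WT lesion 3 the WT difference was -0.67 (adjusted p = 0.0540), and within the lower number series it was -0.91 (adjusted p = 0.0712). Lesion 3 was also the lowest lesion of each genotype in the absorptive colonocyte mean, at 10.23 in WT and 10.11 in KO mice. KO lesion 2 was the highest in that mean, at 11.27. Abcg2 was nearly level in KO lesions 4 and 2, at 8.57 and 8.56, beside means of 10.87 and 11.27. In WT lesions 1, 2 and 3 the mean was 10.66, 11.03 and 10.23, the same rank order as Abcg2. Abcb1a was highest of the WT lesions in lesion 3, at 10.29. Across the KO lesions Abcb1a ranked in the order of the mean, from 9.93 in lesion 3 to 11.30 in lesion 2. Whether the pumps followed the colonocyte mean was not tested.

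**Figure D3:**
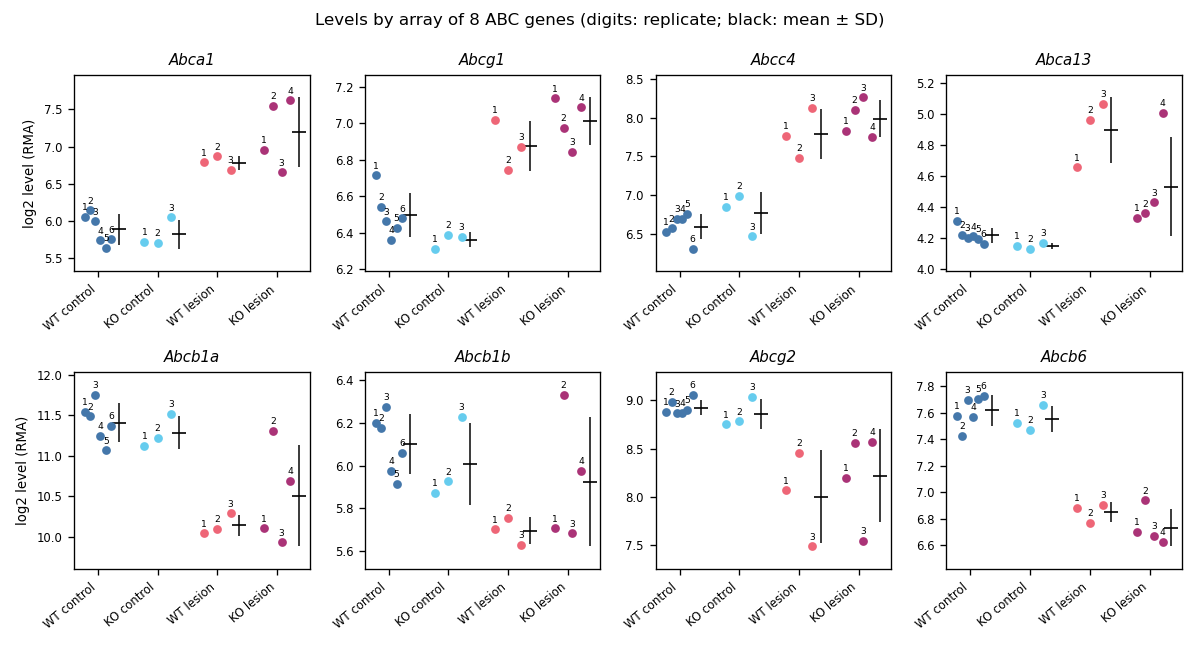
Log2 level of 8 ABC genes in every array, by group, 1 point per array numbered by replicate, with a line at the group mean and bars of 1 SD. Lesion points of Abca1, Abcg1, Abcc4 and Abca13 lie above the controls and those of Abcg2 and Abcb6 below, while KO lesions of Abcb1a and Abcb1b overlap their controls.

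The ABCC pumps of organic anions moved in different directions. Abcc4, which exports cyclic nucleotides and prostaglandins, had the largest rise of the WT response among ABC genes. Its promoter (250 bases, minus strand, GRCm38.p6, chr14:118706220-118706469) is shown because its rise held under every alternative in both genotypes, with an E-box in capitals:
Abcc4: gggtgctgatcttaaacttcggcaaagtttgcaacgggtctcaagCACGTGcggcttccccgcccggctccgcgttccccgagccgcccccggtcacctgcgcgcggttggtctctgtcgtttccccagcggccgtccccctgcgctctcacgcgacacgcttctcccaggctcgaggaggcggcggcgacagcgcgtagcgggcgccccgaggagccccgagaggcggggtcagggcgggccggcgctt
Abcc4 lay between 6.31 and 6.75 in WT controls, with a median of 6.63, and at 7.77, 7.48 and 8.13 in WT lesions. KO controls had 6.84, 6.99 and 6.46 and KO lesions 7.83, 8.10, 8.26 and 7.76. Every lesion exceeded every control of either genotype. The difference was 1.20 ± 0.15 in WT mice (2.30-fold, adjusted p = 6.56e-05) and 1.22 ± 0.17 in KO mice (2.33-fold, adjusted p = 7.23e-05), and both calls held in every alternative tried. Abcc4 was highest of the KO lesions in lesion 3. There the neutrophil mean was lowest and the mean over 7 fibroblast markers highest of the KO lesions, the latter at 7.51. In WT lesion 3, where Abcc4 was highest of the WT lesions, both means were lowest, the fibroblast mean at 7.19. Whether Abcc4 followed these means was not tested.

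Abcc3 exports glucuronides and bile acids across the basolateral membrane. It lay between 9.55 and 9.83 in WT controls, with a median of 9.65, at 9.76, 9.61 and 9.42 in WT lesions, with KO controls at 9.55, 9.91 and 9.77 and KO lesions at 9.40, 9.40, 9.06 and 9.06. The KO lesions were below all other arrays. Abcc3 fell in KO lesions by 0.51 ± 0.12 (1.43-fold, adjusted p = 0.00438), a call kept in every alternative, and differed by -0.06 (95% interval -0.29 to 0.16) in WT mice. Abcc2, the luminal exporter of conjugates, was dim, at 4.24 to 4.44 in WT controls (median 4.32), at 4.24, 4.16 and 4.11 in WT lesions, with KO controls at 4.25, 4.31 and 4.39 and KO lesions at 4.32, 4.39, 4.29 and 4.30. It passed in no comparison.

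Abcc1, which exports glutathione conjugates and leukotriene C4, rose in KO lesions by 0.47 ± 0.13 (1.39-fold, adjusted p = 0.019). The KO lesions, from 7.82 to 7.95, were above the KO controls, and KO control 3 was the lowest array at 7.10. Without it the difference was 0.30 (adjusted p = 0.107), and it was 0.28 when the number series entered as covariate (adjusted p = 0.527). The Abcc1 call was also lost with only the groups compared (adjusted p = 0.0567). Abcc10 fell in WT lesions (-0.28, adjusted p = 0.00816) and in KO lesions (-0.31, adjusted p = 0.00509). Without WT lesion 3 the WT value was -0.26 (adjusted p = 0.0518). Abcc5, Abcc6, Abcc12 and the sulfonylurea receptors Abcc8 and Abcc9, which regulate potassium channels, did not pass, with differences from -0.34 (Abcc5 in WT mice) to 0.20 (Abcc9 in KO mice).

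The enzymes and carriers that work with these pumps were counted from lists. Of 19 conjugating enzymes measured, 9 fell in WT and 11 in KO lesions and 0 rose, with medians of -0.90 and -0.99, beside 8.37% of all genes lower in WT and 12.1% in KO lesions and 6.98% and 8.98% higher. These shares of all genes are the background of every list count here. Sult1a1, a sulfotransferase, fell (-3.85 and -3.68), as did Sult1c2 (-2.48 and -2.93) and Gstt1, a glutathione transferase (-0.90 and -0.83). Of 16 solute carriers, 2 rose and 5 fell in WT lesions and 2 rose and 2 fell in KO lesions, with medians of -0.23 and -0.15. Slco3a1 rose by 0.47 and 0.75, and Slco2b1, an uptake carrier of organic anions, fell (-0.50 and -0.43). Of 16 nuclear receptors and xenobiotic sensors, 4 fell in each genotype and 0 rose. These were Ppara (-1.02 and -0.76), Vdr (-0.77 and -1.14), Nr5a2 (-1.06 and -2.15) and Nfe2l2 (-0.46 and -0.35).

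For the mediators that ABCC pumps carry, 13 genes of cyclic nucleotides, prostaglandins and leukotrienes were measured. Of these 3 rose and 5 fell in WT lesions and 4 rose and 6 fell in KO lesions. Ptgs2, the inducible cyclooxygenase, rose by 5.26 and 6.21, and Ptges, which makes prostaglandin E2, by 0.51 and 0.79. Hpgd, which inactivates prostaglandins, fell (-1.72 and -2.04). Pde4b, which breaks down cyclic AMP, rose by 0.64 and 1.06, and Guca2a, the guanylin hormone that raises cyclic GMP in colonocytes, fell (-1.59 and -1.67). Of the pore subunits of the potassium channels that Abcc8 and Abcc9 join, Kcnj8 rose by 0.35 and 0.33, and Kcnj11 did not pass.

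Of the members in inner membranes, Abcb6 fell in both genotypes. Abcb6 is a porphyrin transporter. Its promoter (250 bases, minus strand, GRCm38.p6, chr1:75180393-75180642) is shown as that of the most significant fall, with TATA boxes that overlap on both strands and a CCAAT box in capitals:
Abcb6: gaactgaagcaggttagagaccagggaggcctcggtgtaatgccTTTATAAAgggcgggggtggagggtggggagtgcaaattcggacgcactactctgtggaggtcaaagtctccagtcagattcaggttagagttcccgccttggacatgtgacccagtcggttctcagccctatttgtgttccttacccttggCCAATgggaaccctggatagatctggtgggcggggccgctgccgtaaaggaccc
Abcb6 lay between 7.43 and 7.73 in WT controls, with a median of 7.64, and at 6.88, 6.77 and 6.90 in WT lesions. KO controls had 7.52, 7.47 and 7.66 and KO lesions 6.70, 6.94, 6.67 and 6.63. Every lesion lay below every control. The difference was -0.76 ± 0.08 in WT mice (1.70-fold, adjusted p = 1.59e-05) and -0.82 ± 0.09 in KO mice (1.76-fold, adjusted p = 1.14e-05), and both calls held in every alternative tried. Among 18 genes of haem and iron-sulfur cluster assembly, 3 rose and 4 fell in WT lesions and 4 rose and 11 fell in KO lesions. Hmox1, which breaks down haem, rose by 1.55 and 2.08, while Urod and Fech, enzymes of haem synthesis, fell (-0.42 and -0.36 in WT and -0.39 and -0.85 in KO lesions).

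Abcb8, a transporter of the inner mitochondrial membrane, fell in KO lesions by 0.25 ± 0.09 (adjusted p = 0.0446), a call lost in 17 of 26 alternatives, and Abcb10 of the same membrane did not pass (-0.08 and -0.16). Abcb9, a lysosomal peptide transporter, fell in WT lesions by 0.32 (adjusted p = 0.0163). Without WT lesion 2 or 3 its value was -0.23 or -0.32 (adjusted p = 0.126 or 0.0668). The ABC proteins Tap1 and Tap2, which pump peptides into the endoplasmic reticulum and do not carry an Abc symbol, rose, Tap1 by 1.82 and 1.71 and Tap2 by 0.55 and 0.64. Of 11 other genes of peptide loading, 7 rose in WT and 5 in KO lesions and 0 fell, among them the immunoproteasome subunits Psmb8 (1.79 and 1.64) and Psmb9 (1.10 and 0.92). Cftr, the chloride channel that is also an ABC protein, differed by -0.57 in WT lesions (adjusted p = 0.203) and fell in KO lesions by 1.47 (adjusted p = 0.00252).

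Of the peroxisomal transporters, which bring in long or branched fatty acids, Abcd3 fell in WT lesions by 0.30 (adjusted p = 0.0454), a call lost in 16 of 27 alternatives. Abcd2 rose in KO lesions and is described with the genotypes, and Abcd4, which acts in lysosomal cobalamin release, did not pass. Among 20 genes of peroxisomal fatty acid oxidation, 11 fell and 0 rose in WT lesions and 12 fell and 1 rose in KO lesions. Phyh, which starts the breakdown of phytanic acid, fell (-1.26 and -1.27), as did Ehhadh (-0.95 and -0.97). The list medians were -0.28 and -0.37.

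Abce1 splits ribosomes after termination, and the ABCF proteins act in translation. Abce1 did not pass, at 0.23 ± 0.26 in WT and -0.27 ± 0.28 in KO mice. Abcf3 fell in KO lesions by 0.31 (adjusted p = 0.0191), but not without KO control 1 (-0.28, adjusted p = 0.0909) or KO control 2 (-0.29, adjusted p = 0.0674). With the number series as a covariate the Abcf3 difference was -0.10 (adjusted p = 0.751). Abcf2 stood at 0.41 ± 0.13 in WT mice (adjusted p = 0.0533) and -0.04 in KO mice, and Abcf1 at 0.13 and 0.10. Of 12 genes of translation control, 4 rose and 1 fell in WT lesions and 2 rose and 1 fell in KO lesions. The kinase Eif2ak2 rose by 0.93 and 0.79, and the kinase Eif2ak4 fell (-0.50 and -0.60).

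In the ABCA subfamily the genes beside Abca1 were mostly dim. Abca13 was dim in every group, so its differences are between measured values near background. It rose in WT lesions by 0.68 ± 0.12 (adjusted p = 0.00128), with lesions from 4.66 to 5.07 above controls from 4.16 to 4.31. This call was kept in all 26 alternatives in which the gene was tested. In KO mice its difference was 0.38 ± 0.13 (adjusted p = 0.0536), with lesion 4 at 5.01 and the other lesions between 4.33 and 4.43. Abca5 rose in KO lesions by 0.27 (adjusted p = 0.0342) at levels from 4.35 to 4.67, and this call was lost in 10 of 25 alternatives. Abca12, a lipid transporter best known from skin, varied most: WT controls ran from 7.41 to 8.79, KO controls from 7.26 to 9.19 and KO lesions from 7.51 to 9.28, and neither response passed (0.17 ± 0.43 and 0.62 ± 0.46). Abca3, the surfactant lipid transporter of the lung, stood at -0.31 (adjusted p = 0.0943) and -0.20. Abca2, Abca4 of the retina and Abca7 did not pass.

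The dim genes Abca6, Abca8a, Abca8b, Abca9, Abca14, Abca15, Abca16, Abca17, Abcb5, Abcc2 and Abcc12 passed in neither response. These 11 genes had levels between 2.61 and 5.04 in all arrays and differences between -0.17 and 0.08. Abca8b, Abca8a, Abca9, Abca6 and Abca5 neighbour each other on chromosome 11, Abca14, Abca15 and Abca16 on chromosome 7, and Abca17 and Abca3 on chromosome 17. Abcg3, a rodent gene, was dim and rose by 0.31 in WT (adjusted p = 0.0248) and 0.28 in KO lesions (adjusted p = 0.0442). These calls were lost without WT lesion 2 (0.19, adjusted p = 0.188) and in 16 of 25 alternatives, respectively. Abcg4, a sterol transporter of the brain, and Abcb4, the phosphatidylcholine transporter of the bile canaliculus, did not pass, with Abcb4 at -0.09 in WT and 0.26 in KO mice (adjusted p = 0.0683).

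The genotypes were then compared within each diet, which asks whether loss of Mcc in the epithelium goes with other ABC levels. On control feed 0 of 48 ABC genes passed in limma, 0 had an unadjusted p under 0.05 beside 2.09% of all genes, and 0 of all 30705 genes passed (0%). Differences ran from -0.33 for Abca12 to 0.18 for Abcc4. In lesions 0 ABC genes passed beside 0.306% of all genes, of which 0.248% were higher and 0.0586% lower in KO mice. Of the 48, 8 (16.7%) had an unadjusted p under 0.05, beside 13.4% of all genes: Abca13, Abcb4, Abcb8, Abcb11, Abcc2, Abcc3, Abcd2 and Abcf2. For the interaction 0 passed beside 0.00326% of all genes, and 8 had an unadjusted p under 0.05 (16.7%, beside 11.1%).

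Abcd2, a peroxisomal transporter of very long chain fatty acids, came closest. It lay between 4.50 and 4.64 in WT controls, with a median of 4.60, at 4.54, 4.67 and 4.59 in WT lesions, with KO controls at 4.43, 4.41 and 4.71 and KO lesions at 5.06, 5.16, 4.74 and 5.10. All KO lesions exceeded all other arrays, with KO lesion 3 the lowest. Abcd2 rose in KO lesions by 0.50 ± 0.10, at least 1.41-fold since the controls were dim (adjusted p = 0.00136), and this call held in every alternative. The difference between KO and WT lesions was 0.42 (adjusted p = 0.0835). Without KO lesion 3 it was 0.51 (adjusted p = 0.00247), and the interaction was 0.58 (adjusted p = 0.0174).

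The count of genes that differed between KO and WT lesions depended on single arrays. With all arrays 76 genes were higher and 18 lower in KO lesions. Without KO lesion 3 there were 686 and 1009, and without WT lesion 1, 2 or 3 there were 3 and 1, 4 and 3, or 5 and 2. Leaving out any other array gave 16 to 45 higher and 3 to 8 lower. Of the ABC genes, Abcd2 and Abcb11 were higher and Abcb8 lower without KO lesion 3, and 0 passed when any 1 of the WT lesions was left out. Abcb11, the bile salt export pump of the liver, was dim, at 4.53, 4.33, 4.20 and 4.34 in KO lesions and 4.16, 4.20 and 4.06 in WT lesions. It rose in KO lesions against their controls by 0.28 ± 0.07 (adjusted p = 0.00849), a call lost with only the groups compared (adjusted p = 0.0742) or the number series as covariate (adjusted p = 0.138). It differed from WT lesions by 0.20 (adjusted p = 0.237) with KO lesion 3 and by 0.25 (adjusted p = 0.0417) without it.

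Abcb8 was at 6.38, 6.30, 6.61 and 6.24 in KO lesions and at 6.73, 6.48 and 6.74 in WT lesions. KO lesion 3 lay above WT lesion 2, so the groups overlapped. The Abcb8 difference was -0.27 (adjusted p = 0.204), -0.25 with the replicate number as a block (adjusted p = 0.326), and -0.34 without KO lesion 3 (adjusted p = 0.0191). The dim gene Abca13 differed from WT lesions by -0.36 in KO lesions (adjusted p = 0.262), and by -0.52 without KO lesion 4 (adjusted p = 0.0352). For Abcc3 the KO lesions did not overlap the WT lesions, with a difference of -0.37 (adjusted p = 0.202). Abcc2 and Abcd2 lay apart in the other direction, so 2 genes lay apart higher and 1 lower, beside 5.47% and 3.91% of all genes. Among the partner lists, Alox5ap, needed for leukotriene synthesis, was higher in KO than in WT lesions by 1.46 (adjusted p = 0.0348), and Psmb10 and Tapbpl of peptide loading were lower, at -0.57 (adjusted p = 0.0269) and -0.49 (adjusted p = 0.0447). Of the neutrophil markers, 3 of 8 were higher in KO lesions, Csf3r, Cxcr2 and Retnlg.

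**Figure D4:**
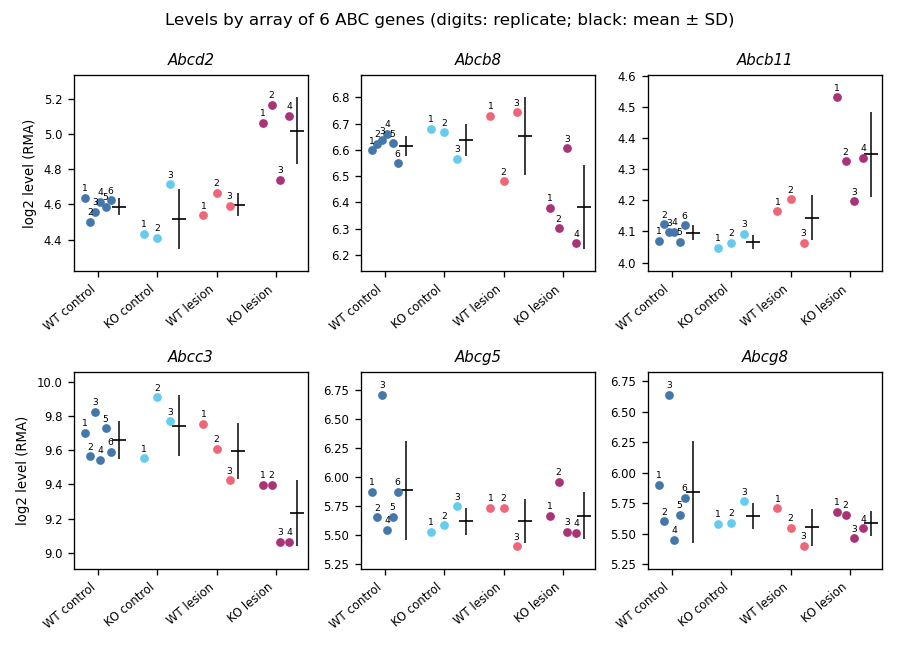
Log2 level of Abcd2, Abcb8, Abcb11, Abcc3, Abcg5 and Abcg8 in every array, by group. Each array is 1 point numbered by replicate, with a line at the group mean and bars of 1 SD. KO lesions lie apart for Abcd2 and Abcc3, and WT control 3 is the highest point of both Abcg5 and Abcg8.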

How the data were processed

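RNA was hybridised to Affymetrix arrays. The deposited values are log2 levels that the authors made with RMA in Affymetrix Power Tools 1.16.1, per the submitters' processing notes. The genome build of the annotation is not given in the sources used here. Of 72688 value rows, 31261 had 1 gene symbol in the platform table, 1489 had several and 39938 were not listed. Symbols were updated through RefSeq (GRCm38.p6), which changed 1071, and the row with the highest mean was kept for each gene.

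One limma 3.58.1 model in R 4.3.3, with 4 group means over 16 arrays and eBayes, gave 5 two-sided comparisons. The p-values were adjusted over 30705 genes by the Benjamini-Hochberg method, and genes under 0.05 were called. A group mean under 4.964 was read as a bound. Within-group correlations of arrays were 0.980 to 0.992, with at most 0.0289% identical values, so no array's values were a copy of another's in its group. This check cannot tell whether arrays share an animal or an RNA sample. The number of arrays limits the precision.

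The members and lists were chosen with earlier results of these data known. Every ABC gene was named. Values by array were given for genes called with a log2 change of at least 1, for those called between genotypes, for Abcb1a, Abcb1b, Abcg2, Abca1, Abcg1, Abcg5, Abcg8, Abcc2, Abcc3 and Abcc4, and, chosen after their values were seen, for Abcb6, Abcb8, Abcb11 and Abcd2. Up to 4 called genes of a list with the lowest p were named. Hpgd was chosen after its values were seen.

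Numbers in the sample descriptions fall in a lower and a higher series. WT controls 1 to 3 and all lesions hold the lower numbers, WT controls 4 to 6 and all KO controls the higher. The KO response therefore cannot be told apart from the series within KO mice. Same-numbered replicates of KO and WT lesions deviated together (r = 0.465, 0.296 and 0.54), and those of the other comparisons did not all do so. Between genotypes in lesions 0 ABC genes were called with or without the replicate block, so the block could remove none. Over all genes it took the calls from 76 higher and 18 lower to 2 and 0. On simulated data with 200 changed genes, differences of 1 were recovered in 92%, 90%, 98%, 95% and 78% of cases in the WT response, the KO response, the genotype difference on control feed and in lesions, and the interaction. For differences of 0.5 the shares were 56%, 66%, 66%, 58% and 26%. The simulated noise was independent and had the same spread in every group, and the lesion responses held far more calls than 200. These shares therefore need not hold for the real comparisons. Promoters are from RefSeq.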

Additional observations from a re-analysis of the deposited data

Results flagged for a closer look

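Of 96 groups of 4 or 6 arrays examined for the 48 ABC genes, 9 held an array far from the others of its group, and chance marks about 1 in 20 groups. WT control 3 was the highest WT control for Abcc9, at 5.71 beside 5.08 to 5.22, for Abcd3, at 10.52 beside 10.15 to 10.26, and for Abcg5, at 6.71 beside 5.55 to 5.88. The same array had the highest mean of the pericyte and smooth muscle markers among WT controls, at 6.83, and the part of this in the 3 values was not tested. WT control 1 was the highest for Abca2, at 6.40 beside 6.10 to 6.20, and for Abcc8, at 6.35 beside 6.15 to 6.22. WT control 6 was the lowest for Abcf1, at 7.95 beside 8.21 to 8.28. KO lesion 4 was the highest KO lesion for Abca13, at 5.01 beside 4.33 to 4.43, and the lowest for Abcc1, at 7.82 beside 7.93 to 7.95. KO lesion 1 was the highest KO lesion for Abcb9, at 6.32 beside 6.10 to 6.13.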

How the results depend on the processing

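Each ABC call was recomputed under up to 27 alternatives. Of 683 values for the 26 calls, 580 stayed past the threshold, 103 did not and 0 changed sign. The 10 calls kept throughout were Abca13, Abcb1a, Abcb6 and Abcc4 in the WT response and Abca1, Abcb6, Abcc3, Abcc4, Abcd2 and Abcg1 in the KO response. In the WT response, leaving out each array in turn gave 5 to 6 genes higher and 2 to 7 lower (4 lower without WT lesion 2, 2 without WT lesion 3), and the lower number series alone gave 2 higher. In the KO response, leaving out each array gave 5 to 9 higher and 3 to 7 lower (5 higher without KO control 3, 3 lower without KO control 1 or 2). There, 4 were higher with only the groups compared and 4 with the series as a covariate, which left 3 lower. With dim genes left out, 5 of the 33 ABC genes still tested were higher and 7 lower in the KO response. Of the genes called in either response, Abca5, Abca13, Abcb11 and Abcg3 were not tested in that setting, since they were dim in every group. In the lesions, the genotype difference gave 0 to 2 higher and 0 to 1 lower over the arrays left out, and 1 higher with array weights (Abcd2, 0.45, adjusted p = 0.0125). The interaction gave 0 to 1 higher and 0 lower. With the replicate number as a block, 4 rose and 6 fell in WT lesions, 8 rose and 4 fell in KO lesions and 0 passed elsewhere. Same-numbered WT lesions and controls correlated at 0.348, 0.171 and 0.0967, and all KO pairs below 0. No label says what a shared replicate number means, and whether such samples share more than the number was not tested.

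Over all genes, the genotype difference in lesions gave 76 higher and 18 lower genes, but 3 and 1, 4 and 3, or 5 and 2 without WT lesion 1, 2 or 3, 1 and 0 with only those groups, 2 and 0 with the block, 1 and 1 within the lower series, 45 and 13 with the series as a covariate, 23 and 6 with arrays centred and 448 and 265 with array weights. The KO response gave 1386 higher and 1125 lower genes with the series as a covariate, beside 2758 and 3712, and the WT response 1584 and 1398 within the lower series, beside 2143 and 2569. Beyond the arrays left out, the causes were not tested. Abcg2 passed in KO lesions and Abcf2 in WT lesions under some alternatives. Signals under the array median limit what can be read from the 15 dim genes.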
